A study of Mus musculus with 30 samples.

Results

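DBA/2 (D2) mice, an inbred laboratory strain, were fed an iron-enriched diet with 8.3 g of iron per kg or an iron-deficient diet with less than 3 mg of iron per kg, and the livers of both groups were compared across the full dietary range. The comparison used the 10 arrays whose titles name these groups, 5 enriched and 5 deficient, of the 30 arrays in the study. The other arrays measured livers of D2 mice on a balanced diet with 200 mg of iron per kg and of C57BL/6 (B6) mice on the same 3 diets, 5 mice per group. The labels name no mutation and no drug treatment for any mouse, and every array had its own animal code. The sex, age and length of feeding of the mice are not given in the labels used here. Total liver RNA was labelled with a single dye and hybridised to oligonucleotide arrays of the whole mouse genome. Levels are given as log2 of the normalized signal intensity, and differences as the enriched minus the deficient mean, with the standard error (SE) of limma, a moderated linear model.

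The liver senses iron and sets the release of iron into blood. Bmp6, a secreted ligand, acts on hepatocytes through BMP receptors and SMAD proteins, and the SMADs switch on the gene of hepcidin, the hormone that blocks iron export from cells. The same pathway induces its own inhibitors. A separate control acts on messenger RNA: when cells lack iron, iron regulatory proteins bind to the transferrin receptor transcript and protect it from decay.

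The share of probes marked well above background was 64.3% to 72.1% on the enriched arrays and 64.5% to 74.7% on the deficient arrays. The arrays had been scanned on 3 days, with 2, 1 and 2 enriched and 1, 2 and 2 deficient arrays on days 1, 2 and 3. They lay on 9 slides, and 1 slide held an array of each diet, enriched mouse 5 and deficient mouse 2. Of 20332 genes tested, 639 (3.14%) passed an adjusted p of 0.05 in limma, 365 higher (1.80%) and 274 lower (1.35%) on the enriched diet. Of the passing genes, 92 differed by at least 2-fold, 45 higher and 47 lower, and the median difference of all genes was 0.00. Of 80 passing genes named by value or role, 23 also passed both without the 3 arrays of scan day 1 and with all 30 arrays in the fit and slide as a block. These were Hamp, Hamp2, Bmp6, Id1, Atoh8, Tfrc, Slc11a2, Hmgcs1, Cyp51, Dhcr7, Hsd17b7, Nsdhl, Pmvk, Sc5d, Cyp4a10, Fabp4, Gsta2, Akr1b8, Ankrd37, Gucy2c, Wdr66, Nfe2 and Bex2, and each of the other 57 lost its call in at least 1 of these fits. All 5 hepatocyte markers tested were well above background on all 10 arrays. Their summed signal lay between 860600 and 954900 in enriched livers and between 984800 and 1029000 in deficient livers, without overlap, although none of them passed in limma and 1 had an unadjusted p under 0.05. The part of this shift in the results below was not tested. In whole liver, fewer cells of a type and less RNA per cell cannot be told apart.

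Hepcidin transcripts showed the largest rises among the genes that passed. The promoter windows of both hepcidin genes are shown because the one of Hamp holds a known BMP response element. They run from 250 bases before to 50 bases after the start of the gene (RefSeq, GRCm38.p6, minus strand, 5′ to 3′), which is the sequence of the C57BL/6J reference and was not read from D2 mice. The Hamp window is chr7:30943980-30944279 and the Hamp2 window is chr7:30924132-30924431. Capitals mark the letters GGCGCC, the core of the element, a palindrome that reads alike on both strands.
Hamp: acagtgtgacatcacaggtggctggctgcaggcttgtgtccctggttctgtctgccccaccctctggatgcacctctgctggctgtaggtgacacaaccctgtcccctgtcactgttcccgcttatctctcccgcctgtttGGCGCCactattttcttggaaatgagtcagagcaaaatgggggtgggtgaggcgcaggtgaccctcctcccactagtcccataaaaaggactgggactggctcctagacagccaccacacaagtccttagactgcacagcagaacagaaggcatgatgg
Hamp2: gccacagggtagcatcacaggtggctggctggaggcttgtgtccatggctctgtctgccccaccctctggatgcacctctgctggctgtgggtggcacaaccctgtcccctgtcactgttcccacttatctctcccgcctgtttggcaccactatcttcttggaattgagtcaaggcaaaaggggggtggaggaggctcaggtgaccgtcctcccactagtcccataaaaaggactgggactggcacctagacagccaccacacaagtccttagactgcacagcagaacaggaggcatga
The Hamp window held GGCGCC once, beginning 109 bases before the start, and the Hamp2 window did not hold it. The same letters were found in 13.4% of 27025 gene windows.

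Hamp, which encodes hepcidin, had levels of 17.63, 17.17, 17.55, 17.27 and 16.82 in enriched livers, against 8.94, 5.45, 4.21, 3.92 and 3.92 in deficient livers. The groups lay far apart, and only 3 of the 5 deficient arrays showed the probe above background. A level of 3.92 is the floor given to dim signals, so the size of the difference depends in part on it. Hamp was higher on the enriched diet by 12.003 (SE 0.870, adjusted p = 0.000288), and by 12.22 with the floor halved. Its near-identical paralog Hamp2 had levels of 17.97, 18.04, 17.92, 17.87 and 17.77 in enriched livers, against 10.16, 7.56, 7.97, 6.80 and 7.41 in deficient livers. It rose by 9.94 (SE 0.521, adjusted p = 3.87e-05). How far each probe also detects the other gene was not measured here, so the separate levels are uncertain. Deficient mouse 1 had the highest level of both genes within its group. The same mouse had the highest Arntl level of the group, 10.35 against 8.19 to 9.02 in the others, and the lowest Dbp level, 14.69 against 15.20 to 15.56. Arntl and Dbp belong to the circadian clock and its output, were chosen after their values were seen, and the hour of sampling is not given in the sources used here. Markers of exocrine pancreas were also high in this mouse, with a mean level over 4 genes of 8.17 against 5.58 to 5.96 in the other deficient mice. The part of either in the hepcidin levels was not tested.

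All 4 genes named in the series title rose, and the groups did not overlap in any of them. The study chose these genes on these samples, so the count is not independent evidence, and 3.81% of all genes had enriched values wholly above the deficient ones. Bmp6, the ligand, had levels of 9.76, 9.96, 9.92, 9.75 and 9.56 in enriched livers, against 7.92, 8.21, 7.91, 8.08 and 8.17 in deficient livers. Every enriched mouse lay well above every deficient mouse. Bmp6 was 3.32-fold higher (log2 1.73, SE 0.0962, adjusted p = 4.53e-05), and a second probe gave 1.94. Id1, an inhibitor of differentiation induced by BMP signals, had levels of 11.84, 10.96, 11.83, 11.84 and 10.42 in enriched livers, against 8.66, 8.82, 8.30, 8.40 and 8.69 in deficient livers. Its difference was 2.80 (SE 0.281, adjusted p = 0.00194), the largest of the 4.

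Smad7, an inhibitory SMAD that dampens the pathway, had levels of 10.89, 10.04, 11.15, 11.03 and 10.05 in enriched livers, against 9.19, 8.86, 9.01, 8.89 and 8.83 in deficient livers. It rose by 1.68 (SE 0.231, adjusted p = 0.00779), and lost the call without the 3 arrays of scan day 1 (adjusted p = 0.0523). Atoh8, a transcription factor known to act on the hepcidin gene, had levels of 10.31, 9.61, 10.55, 10.27 and 9.49 in enriched livers, against 8.37, 8.22, 8.22, 8.28 and 8.07 in deficient livers. It rose by 1.81 (SE 0.199, adjusted p = 0.00303). In Id1, Smad7 and Atoh8 alike, enriched mice 2 and 5 were the lowest of the enriched group, while enriched mouse 2 had the highest Bmp6 level.

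Among 33 other BMP and SMAD genes 3 rose, against 1.80% of all genes, none fell and 30 did not pass. The median was 0.05 against 0.00 over all genes. Leaving out enriched mouse 2, 3 or 4 or deficient mouse 4 or 5 left 1 rise. Id2, another inhibitor of differentiation, rose by 0.97 (SE 0.190, adjusted p = 0.0253). Smad6, the other inhibitory SMAD of this pathway, rose by 0.66 (SE 0.0982, adjusted p = 0.00872). Tmprss6, the hepatocyte protease that cleaves the BMP co-receptor hemojuvelin and so lowers hepcidin, rose by 0.50 (SE 0.101, adjusted p = 0.0290). Id3 (0.93, adjusted p = 0.170) and Smad9 (0.88, adjusted p = 0.0558) did not pass. The ligands Bmp2 (0.41, adjusted p = 0.262) and Gdf2 (-0.69, adjusted p = 0.0833) did not pass either. The iron-sensing partners at the cell surface had differences of -0.18 for Hjv, which encodes hemojuvelin, 0.13 for Hfe and 0.05 for Tfr2. None passed by the probe that stood for the gene. The other Hfe probe gave 0.41, with an adjusted p of 0.0381 in limma over all kept probes, so the probes for Hfe disagreed.

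**Figure D1:**
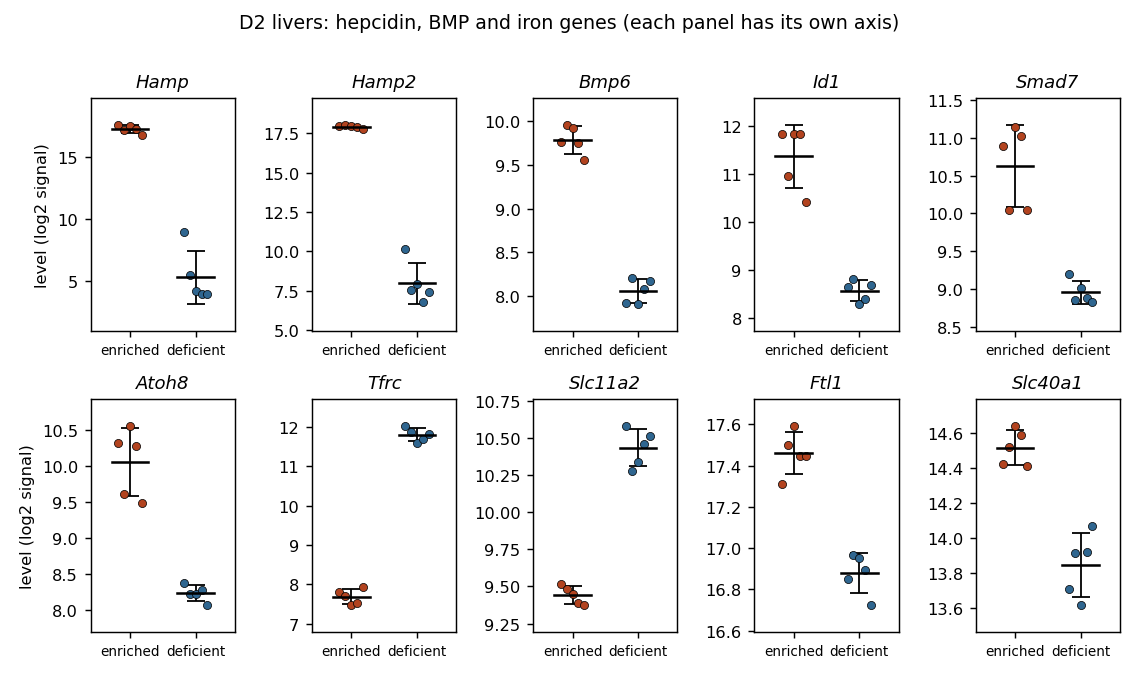
Level (log2 normalized signal, vertical axis) of 10 genes in each enriched (left) and deficient (right) D2 liver. Points are mice, lines are means and bars are SD over 5 mice, and in each panel the groups do not overlap.

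Iron uptake, storage and export genes moved in both directions: of 28 tested, 5 rose, 2 fell and 21 did not pass. Over all genes 1.80% rose and 1.35% fell, and the median of the list was 0.03. Without enriched mouse 2 or 3 the rises numbered 3. Tfrc, the transferrin receptor, had levels of 7.80, 7.72, 7.48, 7.54 and 7.93 in enriched livers, against 12.03, 11.88, 11.59, 11.70 and 11.81 in deficient livers. It had the smallest adjusted p of all genes and fell by 4.11 (SE 0.109, adjusted p = 9.85e-08). Slc11a2, a transporter of ferrous iron, had levels of 9.51, 9.48, 9.45, 9.39 and 9.38 in enriched livers, against 10.58, 10.28, 10.33, 10.46 and 10.51 in deficient livers. It fell by 0.99 (SE 0.0718, adjusted p = 0.000288). Its 2 other probes gave differences of -0.23 and -0.20, so probes for this gene disagreed in size but not in sign. Neither of these passed in limma over all kept probes (adjusted p of 0.424 and 0.433).

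The rises in this group included storage and export genes. Slc40a1, the iron exporter ferroportin, had levels of 14.42, 14.52, 14.64, 14.59 and 14.41 in enriched livers, against 13.71, 13.91, 13.62, 13.92 and 14.07 in deficient livers, and rose by 0.67 (SE 0.0946, adjusted p = 0.00823, or 0.0728 without scan day 1). Ftl1, the ferritin light chain, had levels of 17.31, 17.50, 17.59, 17.45 and 17.45 in enriched livers, against 16.85, 16.97, 16.95, 16.89 and 16.72 in deficient livers, and rose by 0.58 (SE 0.0724, adjusted p = 0.00516, or 0.0526 without scan day 1). No enriched mouse was as low as any deficient mouse in either gene. Ncoa4, the receptor that delivers ferritin for breakdown, rose by 0.49 (adjusted p = 0.0168). Fbxl5, the ubiquitin ligase subunit that removes an iron regulatory protein when iron is plentiful, rose by 0.43 (adjusted p = 0.0133). Mcoln1, a lysosomal channel that can release iron, rose by 0.29 (adjusted p = 0.0269), and its other probe gave 0.06. Fth1, the ferritin heavy chain, did not pass (-0.11, adjusted p = 0.426).

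The lists of heme synthesis and of iron-sulfur cluster assembly had 1 call each, and over all genes 1.80% rose. Alas2, described below, was listed with the erythroid markers and is not in these counts. Of 8 heme synthesis enzymes 1 rose, Fech, which inserts iron into heme (0.28, adjusted p = 0.0208). Of 20 genes of iron-sulfur cluster assembly 1 rose, the cochaperone Hscb (0.37, adjusted p = 0.0191). Fech did not pass without enriched mouse 2 or 4, nor Hscb without enriched mouse 3. Alas2, the erythroid form of the enzyme that begins heme synthesis, had levels of 13.53, 13.66, 13.69, 13.60 and 13.41 in enriched livers, against 12.72, 12.46, 12.86, 13.28 and 12.81 in deficient livers. It rose by 0.75 (SE 0.136, adjusted p = 0.0186) and was the only one of 6 erythroid markers to pass. Without enriched mouse 2 or 3 or deficient mouse 1 it did not pass, with adjusted p up to 0.0562. The summed erythroid signal was 34350 to 57880 in enriched livers and 29720 to 41320 in deficient livers, and its part in the Alas2 value was not tested. Of 10 genes of heme breakdown and scavenging none passed in limma or by the methods' t-test, and 1 passed with trended robust variances. An unadjusted p under 0.05 in limma was found for 4 of the 10, and for 3355 of all 20332 genes. Hmox1, the inducible heme oxygenase, had a difference of -0.13 (adjusted p = 0.444).

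The cholesterol pathway was the list with the most calls. Of 23 genes of cholesterol synthesis and sterol control 17 were lower on the enriched diet, against 1.35% of all genes. None was higher and 6 did not pass, and the median difference was -1.39 against 0.00 over all genes. In 15 of the 23 every enriched mouse lay below every deficient mouse, which held for 2.81% of all genes. The windows of Hmgcs1 and Mvk are printed because both genes fell and because their windows hold repeated CCAAT boxes, the letters bound by the factor NF-Y, which is known to act beside SREBP factors at sterol-responsive genes. The Hmgcs1 window is chr13:119690101-119690400 and the Mvk window is chr5:114444019-114444318 (RefSeq, GRCm38.p6, plus strand, 5′ to 3′). Capitals mark CCAAT or its reverse complement ATTGG and, in Hmgcs1, CACCCCAC, a core of sterol response elements.
Hmgcs1: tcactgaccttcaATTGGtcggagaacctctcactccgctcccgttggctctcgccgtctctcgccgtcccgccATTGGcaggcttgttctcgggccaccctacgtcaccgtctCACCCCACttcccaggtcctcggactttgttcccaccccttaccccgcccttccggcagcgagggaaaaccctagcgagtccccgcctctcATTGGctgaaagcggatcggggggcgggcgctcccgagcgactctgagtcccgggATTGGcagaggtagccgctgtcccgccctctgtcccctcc
Mvk: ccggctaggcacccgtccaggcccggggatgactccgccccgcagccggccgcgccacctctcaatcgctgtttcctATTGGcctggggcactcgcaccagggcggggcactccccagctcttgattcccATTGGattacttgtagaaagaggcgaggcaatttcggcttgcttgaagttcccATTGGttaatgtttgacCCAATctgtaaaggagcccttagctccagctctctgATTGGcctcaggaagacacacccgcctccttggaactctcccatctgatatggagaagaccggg
CCAAT was found on either strand 4 times in the Hmgcs1 window and 5 times in the Mvk window. Of the 23 genes 19 had a window, and 17 of these held CCAAT, against 41.1% of all windows. CACCCCAC on either strand was in 2 of the 19 and in 3.30% of all windows. A match describes letters and not binding.

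Hmgcs1, which makes the precursor of mevalonate, had levels of 8.88, 8.10, 8.36, 7.76 and 9.75 in enriched livers, against 11.49, 11.76, 10.90, 11.01 and 11.19 in deficient livers. It fell by 2.70 (SE 0.346, adjusted p = 0.00557). Sqle, the squalene epoxidase, had levels of 11.23, 10.23, 10.42, 9.75 and 12.25 in enriched livers, against 13.28, 13.84, 12.99, 13.29 and 13.22 in deficient livers. Enriched mouse 5 was the highest and enriched mouse 4 the lowest of the enriched group in both genes. Sqle fell by 2.55 (SE 0.417, adjusted p = 0.0127).

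The falls lay in both the early and the late steps of the route to cholesterol. In the mevalonate branch Mvk fell by 1.38, Pmvk by 1.18, Mvd by 2.29, Idi1 by 2.21 and Fdps by 2.37, with adjusted p between 0.00737 and 0.0222. From squalene onward Fdft1 fell by 1.45, Lss by 1.41, Cyp51 by 2.34, Nsdhl by 2.37, Msmo1 by 1.67, Hsd17b7 by 1.61, Sc5d by 0.67 and Dhcr7 by 1.39, with adjusted p between 0.00516 and 0.0292. Mvk and the transcription factor gene Srebf2 (-0.72, adjusted p = 0.0429) passed although their groups overlapped. The sterol carrier Stard4 fell by 0.78 (adjusted p = 0.0225). Insig1, which holds back the processing of SREBP factors, did not pass by the probe that stood for the gene (-1.12, adjusted p = 0.0590). Its other probe gave -1.07, with an adjusted p of 0.0324 in limma over all kept probes.

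Averaged over the 23 genes, the level was 12.86 in enriched mouse 5 and 11.76 to 12.36 in the other enriched mice, against 13.34 to 13.84 in deficient mice. The highest deficient value came from mouse 2, which shared a slide with enriched mouse 5, and the difference on that slide was -0.98. Leaving out 1 mouse at a time gave between 12 and 18 falls, with 12 without enriched mouse 2 or 3 and 18 without enriched mouse 5. The median stayed between -1.58 and -1.27. Within scan days 1, 2 and 3 the median was -1.66, -1.42 and -1.26. With all 30 arrays in the fit and slide as a block, 7 of the 23 genes fell, with a median of -1.42.

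**Figure D2:**
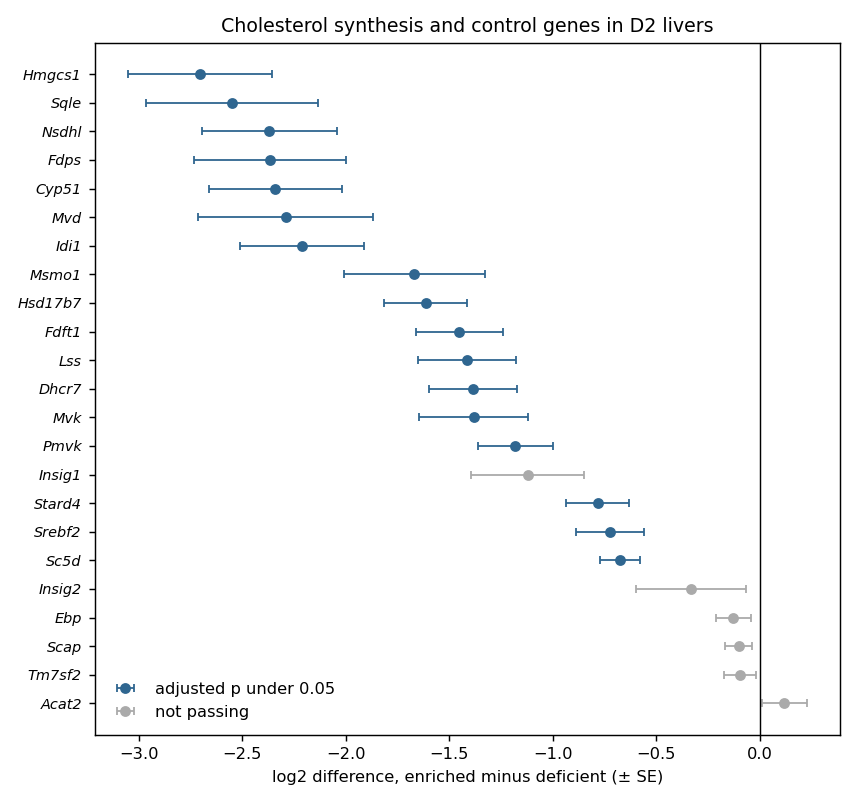
Log2 difference (horizontal axis, enriched minus deficient D2 livers, bars are SE from limma) of 23 genes of cholesterol synthesis and sterol control. The 17 genes that passed lie between -2.70 and -0.67, and the highest of the others is 0.12.

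Fatty acid oxidation genes, many of them targets of the nuclear receptor PPAR alpha, were also in part lower on the enriched diet. Of 28, 9 fell, against 1.35% of all genes, none rose and 19 did not pass, with a median of -0.20. Pdk4, a kinase that shuts off glucose oxidation, had levels of 8.50, 8.99, 8.86, 8.60 and 8.56 in enriched livers, against 10.41, 10.16, 9.92, 9.49 and 9.77 in deficient livers. It fell by 1.25 (SE 0.171, adjusted p = 0.00769), but did not pass without scan day 1. Fgf21, a hormone of the fasted liver, had levels of 13.19, 13.22, 13.10, 13.41 and 13.16 in enriched livers, against 14.31, 14.67, 13.77, 13.81 and 14.31 in deficient livers. The enriched mice were close together and the deficient mice more spread. Fgf21 fell by 0.96 (SE 0.166, adjusted p = 0.0160). It did not pass without scan day 1 (adjusted p = 0.0797), with all 30 arrays in the fit (0.256) or with slide as a block in that fit (0.439). The peroxisomal enzyme Ehhadh fell by 0.71 (adjusted p = 0.00823), the fatty acid hydroxylase Cyp4a10 by 0.68 (adjusted p = 0.00709) and the thioesterase Acot1 by 0.46 (adjusted p = 0.0331). The remaining falls were 0.35 for Hadhb, 0.31 for Acadl, 0.30 for Cpt1a and 0.28 for the carnitine carrier Slc25a20. Leaving out 1 mouse at a time left between 3 and 7 falls, 3 without enriched mouse 3, 4 without enriched mouse 2 or deficient mouse 5, and 5 without enriched mouse 4 or deficient mouse 1, 2 or 3. Without the arrays of scan day 1, 1 gene fell.

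Lipid storage and synthesis genes moved less uniformly. Scd1, the desaturase that makes oleate, had levels of 16.71, 16.07, 16.22, 16.32 and 16.10 in enriched livers, against 15.28, 12.68, 14.17, 13.98 and 14.79 in deficient livers. Deficient mouse 2 was far below the rest. Scd1 rose by 2.11 (SE 0.411, adjusted p = 0.0245), a call lost in 7 of 10 fits that left out 1 mouse (adjusted p up to 0.0656). Fasn, the fatty acid synthase, had levels of 14.72, 14.40, 14.47 and 14.27 in 4 enriched livers, against 15.43, 15.72, 14.995, 14.997 and 15.43 in deficient livers. The spot of enriched mouse 5 bore an outlier mark and was left out, and the fit on the other arrays gave a fall of 0.85 (SE 0.167, adjusted p = 0.0298). The desaturase Fads1 fell by 0.44 (adjusted p = 0.0431) and the elongase Elovl5 by 0.39 (adjusted p = 0.0346). So 1 of 16 fatty acid synthesis genes rose and 3 fell, against 1.80% and 1.35% of all genes. None of the falls passed without enriched mouse 2, 3 or 4 or deficient mouse 1 or 5.

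Cidec, a lipid droplet protein, had levels of 10.29, 10.20, 10.75, 10.62 and 10.48 in enriched livers, against 11.53, 12.95, 12.23, 12.22 and 11.59 in deficient livers, and fell by 1.64 (SE 0.253, adjusted p = 0.0103, or 0.128 with all arrays and slide as a block). Plin2, the droplet coat protein of liver, fell by 0.54 (adjusted p = 0.00830). Cidec and Plin2 were the 2 calls among 14 lipid droplet genes, and over all genes 1.35% fell. Fabp4, a fatty acid binding protein, had levels of 11.55, 11.50, 11.48, 11.70 and 11.62 in enriched livers, against 12.71, 12.55, 12.61, 12.70 and 12.44 in deficient livers. The separation was wide relative to the spread, and Fabp4 fell by 1.03 (SE 0.0729, adjusted p = 0.000288). Its 2 other probes gave -1.05 and -0.80.

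Bile acid genes had calls in both directions, 2 higher and 2 lower of 17, against 1.80% and 1.35% of all genes. Nr0b2, the repressor that bile acids induce, had levels of 9.72, 9.08, 8.98, 9.04 and 9.60 in enriched livers, against 7.61, 7.15, 7.73, 7.32 and 8.65 in deficient livers, and rose by 1.59 (SE 0.276, adjusted p = 0.0162). Deficient mouse 5 came closest to the enriched mice. The difference was 2.17, 0.99 and 1.73 within scan days 1, 2 and 3, and did not pass without scan day 1 (adjusted p = 0.140). Abcb11, the bile salt export pump, rose by 0.47 (adjusted p = 0.0263). Cyp8b1, which directs bile acid synthesis to cholate, fell by 0.69 (adjusted p = 0.00900), and Klb, a coreceptor of FGF hormones, fell by 0.38 (adjusted p = 0.0365). Abcb11 and Klb lost the call in 6 and 9 of the 10 fits that left out 1 mouse. Of 14 genes of glucose output and glycogen 1 rose, the glycogen phosphorylase Pygl (0.44, adjusted p = 0.0133), against 1.80% of all genes.

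Stress defence genes rose in part. Of 26 targets and parts of the NRF2 response, which guards against electrophiles and oxidants, 5 rose, against 1.80% of all genes, and none fell. The median was 0.18. Gsta2, a glutathione transferase, had levels of 11.84, 12.57, 11.56, 11.10 and 11.67 in enriched livers, against 10.25, 10.63, 9.79, 10.27 and 10.28 in deficient livers. It rose by 1.502 (SE 0.250, adjusted p = 0.0134), with enriched mouse 2 the highest. Osgin1 rose by 1.13 (adjusted p = 0.0208), the aldo-keto reductase Akr1b8 by 0.91 (adjusted p = 0.00823), Gsta4 by 0.60 (adjusted p = 0.0263) and the exporter Abcc4 by 0.47 (adjusted p = 0.0376). Gclc, of glutathione synthesis, did not pass (0.50, adjusted p = 0.139). Leaving out 1 mouse at a time gave between 2 and 6 rises, with 2 without enriched mouse 3 or deficient mouse 1, and 3 without enriched mouse 1 or 2 or deficient mouse 4.

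Of 7 metallothionein and zinc transporter genes 3 rose, against 1.80% of all genes. Mt1, a metal-binding protein, had levels of 15.98, 16.67, 16.65, 16.59 and 16.29 in enriched livers, against 15.61, 15.16, 15.35, 15.32 and 15.74 in deficient livers, and rose by 0.999 (SE 0.159, adjusted p = 0.0115). Mt2 rose by 0.86 (adjusted p = 0.00830) and the zinc importer Slc39a4 by 0.55 (adjusted p = 0.0225). Mt1 and Mt2 did not pass with all 30 arrays in the fit (adjusted p of 0.200 and 0.426), with slide as a block in it (0.325 and 0.455) or without scan day 1 (0.115 and 0.106). Of 18 antioxidant enzymes none passed in limma or by the methods' t-test, and 3 had an unadjusted p under 0.05, against 3355 of all 20332 genes. Of 21 hypoxia genes 1 fell, Ankrd37, a target of hypoxia-inducible factors, and over all genes 1.35% fell. Ankrd37 had levels of 5.36, 5.50, 5.84, 6.08 and 6.16 in enriched livers, against 7.06, 7.67, 6.86, 7.72 and 7.51 in deficient livers, and fell by 1.57 (SE 0.212, adjusted p = 0.00737).

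Of 29 cell cycle genes 3 rose, against 1.80% of all genes, 28 had a difference above zero and the median was 0.53. An unadjusted p under 0.05 was found for 17, all of them higher, and for 3355 of all 20332 genes in either direction. In 7 every enriched mouse lay above every deficient mouse, against 3.81% of all genes. Ccnd1, the cyclin that drives entry into the cell cycle, had levels of 10.33, 10.63, 11.12, 11.24 and 10.86 in enriched livers, against 9.52, 9.04, 8.33, 8.93 and 8.96 in deficient livers. The groups were apart, and Ccnd1 rose by 1.88 (SE 0.229, adjusted p = 0.00467). The call was lost without scan day 1 (adjusted p = 0.0666) and with all arrays and slide as a block (0.0595). Cdc20, an activator of mitotic exit, rose by 0.87 (adjusted p = 0.0181). Cep55, of cell division, passed (0.66, adjusted p = 0.0301) but was above background on 4 enriched arrays and 1 deficient array, its other probe gave 0.13, and its difference turned to -0.24 with the floor halved. Mki67, the proliferation marker, did not pass (0.57, adjusted p = 0.233). Leaving out 1 mouse at a time gave between 1 and 7 rises in this list, with 7 without enriched mouse 1 and 1 without enriched mouse 3, and none rose without scan day 1.

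Several large differences lay outside these groups. Gucy2c, a guanylate cyclase receptor, had levels of 11.00, 10.21, 10.36, 10.33 and 9.84 in enriched livers, against 8.70, 8.74, 8.39, 8.54 and 8.43 in deficient livers, and rose by 1.79 (SE 0.185, adjusted p = 0.00248). Wdr66, linked to cilia and flagella, had levels of 7.83, 7.70, 7.62, 7.20 and 7.03 in enriched livers, against 5.86, 5.29, 6.25, 5.44 and 6.03 in deficient livers, and rose by 1.70 (SE 0.217, adjusted p = 0.00557). Neither gene showed overlap between diets. Srgap3, a GTPase-activating protein, rose by 1.52 (adjusted p = 0.0213), but its other probe gave 0.10. Nfe2, a transcription factor known from blood-forming cells, had levels of 6.13, 5.84, 6.08, 5.93 and 6.94 in enriched livers, against 8.95, 8.97, 7.95, 7.86 and 8.13 in deficient livers, and fell by 2.19 (SE 0.285, adjusted p = 0.00629). Bex2 was dim, above background on 2 enriched and 5 deficient arrays, and fell by 1.33 (SE 0.102, adjusted p = 0.000356). Of 15 sinusoidal endothelial markers, from the cells that make most liver Bmp6, 2 fell, Flt1 by 0.59 (adjusted p = 0.00823) and Emcn by 0.36 (adjusted p = 0.0206). Over all genes 1.35% fell. Of the 15 markers 5 had a difference above zero. In limma 2 were higher and 5 lower at an unadjusted p under 0.05. Other Flt1 probes gave -0.76 to 0.30. The summed endothelial signal was 47010 to 52470 in enriched livers and 45180 to 52130 in deficient livers.

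**Figure D3:**
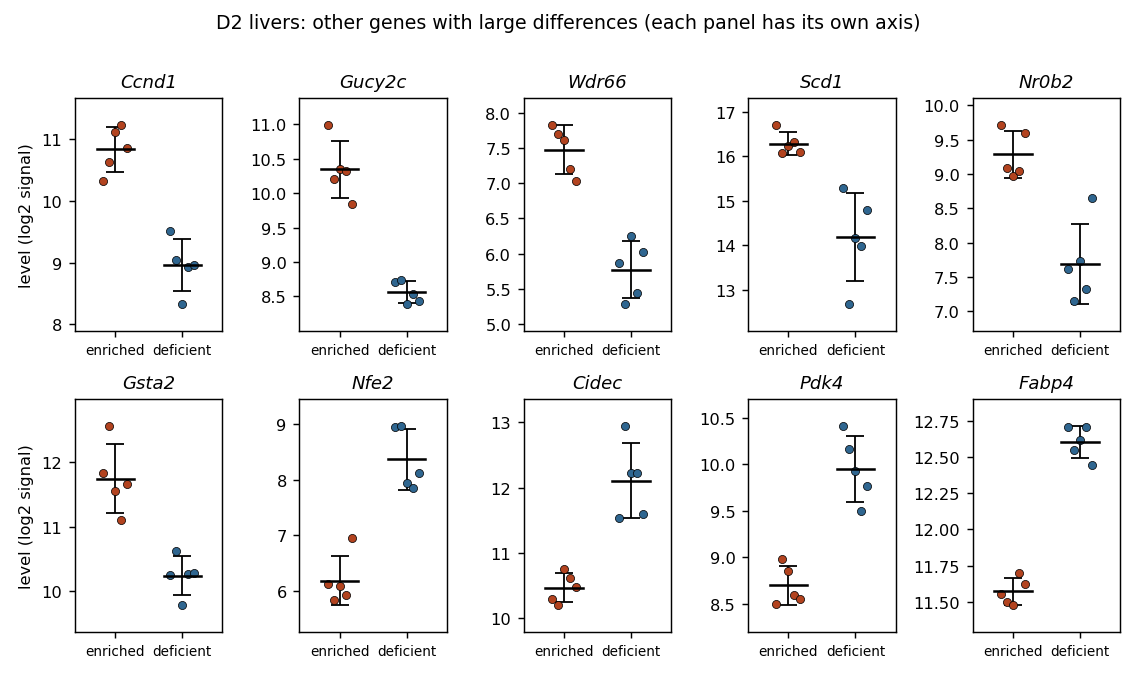
Level (log2 normalized signal, vertical axis) of 10 genes from other groups in each enriched (left) and deficient (right) D2 liver. Points are mice, lines are means and bars are SD over 5 mice, and the upper row and Gsta2 are higher on the enriched diet while Nfe2, Cidec, Pdk4 and Fabp4 are lower.

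The balanced D2 mice, which took no part in the test, show where along the range each difference lay. Of the 639 passing genes, the balanced mean lay between the other means in 450 and closer to the enriched mean in 548. Tfrc averaged 11.80 ± 0.17 on the deficient, 8.98 ± 0.35 on the balanced and 7.69 ± 0.18 on the enriched diet (SD, n = 5 each). Hamp2 averaged 7.98 ± 1.29, 16.30 ± 0.83 and 17.92 ± 0.10 on the deficient, balanced and enriched diets. Both genes had most of their range below the balanced diet. Bmp6 was spread more evenly, with 8.06 ± 0.14, 8.99 ± 0.14 and 9.79 ± 0.16 on the deficient, balanced and enriched diets. Id1 averaged 8.58 ± 0.21, 9.57 ± 0.63 and 11.38 ± 0.66, and Ccnd1 8.96 ± 0.42, 9.44 ± 0.32 and 10.84 ± 0.37, on the same diets, so for these the balanced mean lay nearer the deficient one. Hmgcs1 averaged 11.27 ± 0.35, 8.73 ± 0.36 and 8.57 ± 0.78 on the deficient, balanced and enriched diets. All 17 cholesterol genes and all 9 fatty acid oxidation genes that passed had a balanced mean closer to the enriched mean, and in none of the 9 did it lie between the others. Pdk4 averaged 9.95 ± 0.35, 8.68 ± 0.22 and 8.70 ± 0.21 on the deficient, balanced and enriched diets.

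**Figure D4:**
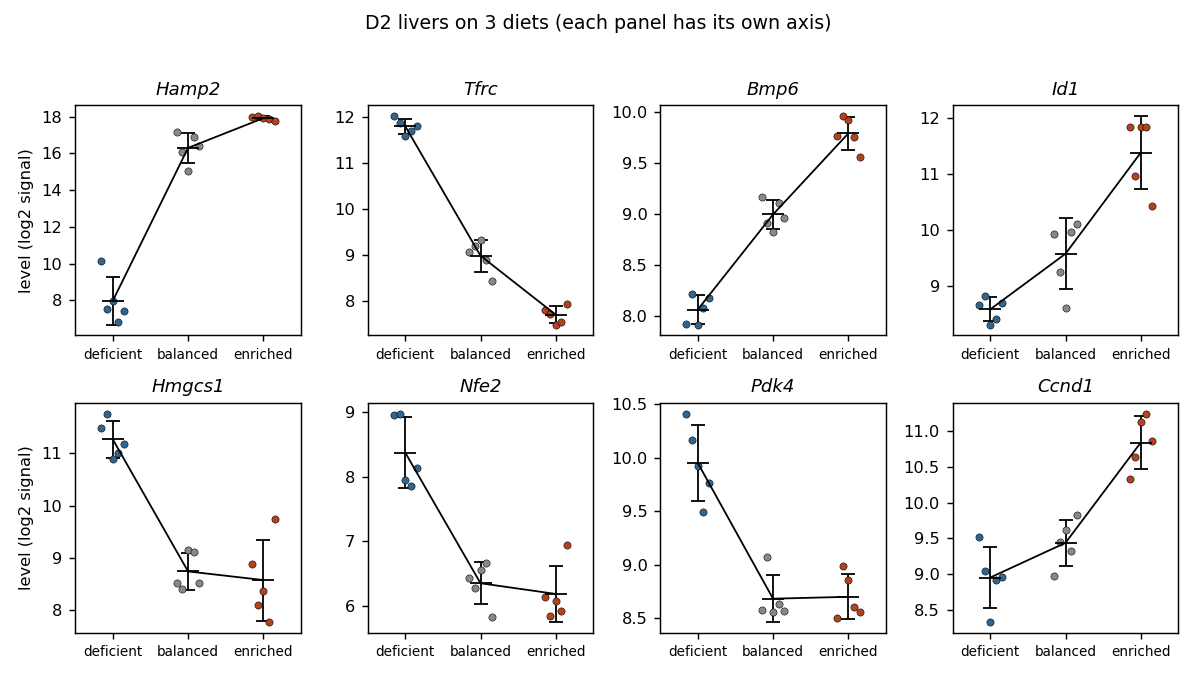
Level (log2 normalized signal, vertical axis) of 8 genes in D2 livers on the deficient, balanced and enriched diets. Points are mice and lines join means, with bars of SD over 5 mice; Hmgcs1, Nfe2 and Pdk4 have balanced means close to the enriched ones, while Bmp6 rises in steps of similar size.

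Whether a difference was particular to D2 was asked by setting it against the same contrast in B6 mice. The strain difference passed for 129 genes (0.634%), and 48 of these also passed within D2. Bmp6 rose less in D2, by 1.73 against 2.81 in B6 (strain difference -1.08, adjusted p = 0.000388). Smad7 rose by 1.68 in D2 against 3.29 in B6 (strain difference -1.61, adjusted p = 0.0163). Akr1b8 rose by 0.91 in D2 against 1.91 in B6 (strain difference -0.999, adjusted p = 0.0304). Id1 and Atoh8 had smaller values in D2 as well, with strain differences of -1.02 (adjusted p = 0.363) and -1.11 (adjusted p = 0.0876) that did not pass. Hamp, Hamp2 and Tfrc had strain differences of -0.35, 1.13 and -0.24, with adjusted p of 0.959, 0.539 and 0.794.

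Some BMP targets moved in B6 without a call in D2. Id4 had a difference of -0.22 in D2 against 1.96 in B6 (strain difference -2.18, adjusted p = 0.000388), and Id3 had 0.93 in D2 against 2.94 in B6 (strain difference -2.01, adjusted p = 0.0453). In the other direction, Wdr66 had 1.70 in D2 against 0.25 in B6 (strain difference 1.46, adjusted p = 0.0163), and Alas2 had 0.75 in D2 against -0.55 in B6 (strain difference 1.30, adjusted p = 0.0243). Cyp2c23, an arachidonate epoxygenase, had 0.81 in D2 against -1.08 in B6 (strain difference 1.90, adjusted p = 0.00114). Bex2 had -1.33 in D2 against 0.10 in B6 (strain difference -1.44, adjusted p = 0.000388). Its B6 levels lay at or just above the floor, from 3.92 to 4.44, and only 4 enriched and 2 deficient B6 arrays were above background, so the size of this strain difference is uncertain. For the cholesterol genes the median was -1.39 in D2 against -0.28 in B6. None of the 23 passed the strain difference in limma. An unadjusted p under 0.05 was found for 11 of the 23, against 2285 of all 20332 genes. A difference between the strains was thus not shown for any single cholesterol gene, and the list as a whole was not tested. For the 29 cell cycle genes the median was 0.53 in D2 against -0.17 in B6. Of these, 17 had an unadjusted p under 0.05 for the strain difference in limma. Only 1 passed, Cep55, whose strain value turned to -0.22 with the floor halved. This list was not tested as a whole either.

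Not every strain call held when batches were modelled. Of the 12 strain differences that passed among the named genes, 5 also passed with slide as a block, those of Bmp6, Id4, Wdr66, Bex2 and Plscr2. With slide as a block Smad7 had an adjusted p of 0.113, Akr1b8 0.149, Alas2 0.149, Cyp2c23 0.0791 and Id3 0.223. Without scan day 1, which held none of the B6 arrays compared here, the same 5 and Cyp2c23 passed, while Smad7 (0.0515), Akr1b8 (0.143), Alas2 (0.129) and Id3 (0.190) did not. The value for Bmp6 was -1.20 with slide as a block and -0.95 without scan day 1. With the mean of its kept probes in place of the brightest, the Bmp6 value was smaller, -0.83 (adjusted p = 0.0189 in limma). Changes to the processing cost further strain calls. Bex2 did not pass with the floor halved (adjusted p = 0.0558). Wdr66 did not pass with 75th percentile scaling (0.111) or without normalization (0.323).

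**Figure D5:**
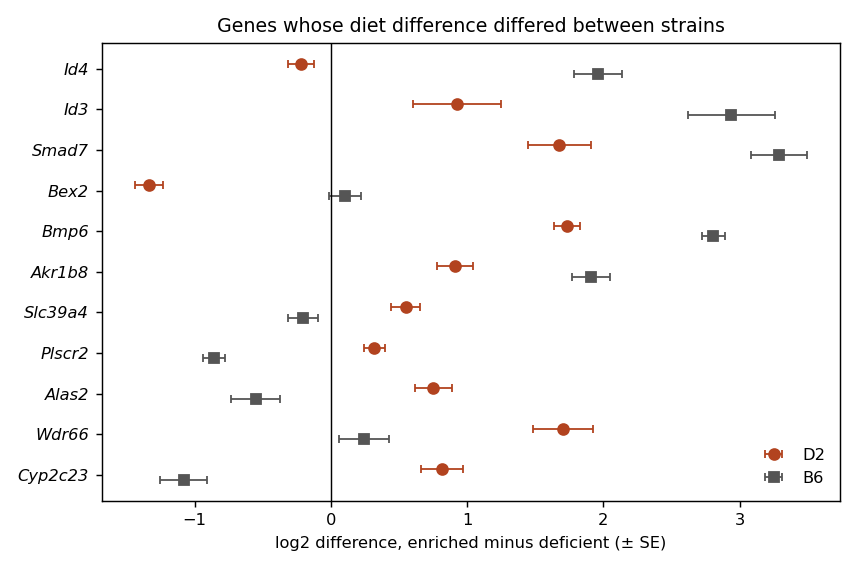
Log2 difference (horizontal axis, enriched minus deficient, bars are SE from limma) of 11 genes whose strain difference passed, in D2 (circles) and B6 (squares) livers. Bmp6 and Smad7 differ more between diets in B6, and Wdr66 differs more in D2.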

How the data were processed

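Liver RNA of 30 mice had been hybridised to 1-colour Agilent arrays, 1 mouse per array, and the deposited array files hold the linear intensity of each spot. The processed signal used here had its background subtracted by Feature Extraction, per the file headers version 9.1.3.1 and per the labels version 9.5.1. The deposited value table holds the same intensity (largest difference 0).

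Control spots and spots with an outlier mark were dropped, spots of a probe were averaged, and 41174 probes were normalized by the quantile method over all 30 arrays. Signals were raised to a floor of 15.1 and log2 transformed. To set the floor, the dimmest signal with the well-above-background mark was found on each array and the median taken. A probe was kept when marked well above background on at least 3 B6 and 3 D2 arrays with at least 3 values in every group. The brightest kept probe stood for a gene. Names came from RefSeq (GRCm38.p6): 22951 probes matched by accession, 6659 by symbol and 3109 by synonym, and 8455 kept the file's name.

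The 5 enriched and 5 deficient D2 arrays were fitted alone with limma 3.58.1 (R 4.3.3), with Benjamini-Hochberg adjustment over 20332 genes. Strain differences were fitted over 20 arrays. On simulated data with 5 arrays a group, 48.5%, 76.1% and 89.6% of genes with log2 changes of 0.5, 1 and 2 were recovered. There were 16 false calls in a set of 20268 genes. Only a small part of these genes had been changed, so the share of false calls among all calls was far larger than 16 in 20268. The simulated noise was independent between arrays, without slide or scan day effects, so these rates need not hold for the real arrays. The number of arrays limits the precision. Replicate numbers follow accession order and pair no samples.

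Genes were named by rule: the 12 largest rises and 12 largest falls without overlap, the 5 smallest adjusted p of the diet comparison and of the strain difference, the title and hepcidin genes and Tfrc, and up to 5 passing members of each list. Clone names were passed over. A few genes are not reported here: they stayed in the fit but were left out of the lists and the named genes. Further members of the lists were named for their role after their values were seen. The 36 lists and the genes were chosen with earlier results of these data known, so no list was tested. Alternatives changed the probe filter, normalization, background, floor, probe choice, arrays in the fit, batch terms, test and replicates. The methods' two-way analysis of variance was replaced by limma. Plain per-gene tests, called the methods' t-test, were an alternative across all genes.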

Additional observations from a re-analysis of the deposited data

Results flagged for a closer look

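The diet difference (enriched minus deficient) differed between the strains, by limma's test of the difference itself, for 12 of the 97 named genes. D2 minus B6 differences were -1.08 for Bmp6, -1.61 for Smad7, -2.01 for Id3, -2.18 for Id4, -0.999 for Akr1b8 and -1.44 for Bex2. They were 1.90 for Cyp2c23, 1.46 for Wdr66, 1.30 for Alas2, 1.17 for Plscr2, 0.75 for Slc39a4 and 0.72 for Cep55. The Cep55 value depended on the processing. It was -0.22 with the floor halved (adjusted p = 0.926 in limma) and 0.09 with 75th percentile scaling (0.956).

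Single mice stood apart from their group in 13 of 194 gene and group pairs by Dixon's criterion, and chance alone flags about 1 in 20. Enriched mouse 5 was apart for 4 genes: it was high for Pmvk (13.63), Srebf2 (13.29) and Nfe2 (6.94), and low for Srgap3 (7.27, others 7.88 to 8.10). Deficient mouse 2 was high for Cyp4a10 (17.77), Fth1 (18.16), Hsd17b7 (13.31) and Mcoln1 (12.65). Deficient mouse 4 was low for Emcn (10.16) and Fech (14.05), deficient mouse 5 was low for Ehhadh (16.71) and Slc39a4 (14.01), and enriched mouse 3 was low for Cyp8b1 (13.31).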

How the results depend on the processing

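The 639 calls moved with the processing, but hardly any sign turned: in each alternative, all or all but 1 of the 639 genes that were tested in it kept their sign. In 606 of the 639 the groups did not overlap. For these, fits on fewer of the same arrays could not turn the sign. Without normalization 269 genes passed, 14.5% of them higher against 57.1% as reported, and the median of all genes was -0.17. Scan day as a block gave 1024, trended robust variances 970, all 30 arrays with slide as a block 384, and the arrays without scan day 1 gave 137; the last alternative and the slide fit were chosen after seeing the data. Within scan days 1, 2 and 3, with 3 or 4 arrays each, limma passed 0, 0 and 0 genes, and 2449, 2283 and 2689 had an unadjusted p under 0.05. Leaving out 1 mouse gave 287 to 560, moving most without enriched mouse 2 (303), 3 (287) or 4 (365) or deficient mouse 1 (354) or 4 (421). The cause was not tested.

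For the strain difference (129 genes), the count was 37 without normalization, 15 with slide as a block, 289 with slide as a random block, 194 with scan day as a block, 218 with trended robust variances, 62 and 196 with all 30 arrays and slide or scan day as a block, 33 without scan day 1, and 0 and 0 within scan days 2 and 3 (1418 and 1355 unadjusted). Leaving out 1 mouse gave 53 to 150, under 86 without B6 enriched 4 or 5, B6 deficient 2 or 5, D2 enriched 2, 3, 4 or 5, or D2 deficient 1, 2 or 3. Of the 12 named strain differences, 7 passed with each mouse left out in turn, and 5 passed with slide as a block, 8 with all arrays and slide as a block, 6 without scan day 1 and 6 without normalization.

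Of 80 named genes that passed, 45 passed with each mouse left out in turn and 35 lost the call without at least 1 (13 to 34 per mouse). These were Abcb11, Abcc4, Acadl, Acot1, Alas2, Cdc20, Cep55, Cpt1a, Cyp2c23, Elovl5, Emcn, Fads1, Fasn, Fech, Fgf21, Gsta4, Hadhb, Hscb, Id2, Itih3, Klb, Mcoln1, Msmo1, Mvd, Mvk, Ncoa4, Nr1i3, Osgin1, Scd1, Slc25a20, Slc39a4, Srebf2, Srgap3, Stard4 and Tmprss6. Of the 80, 77 passed with scan day as a block, 35 without scan day 1 and 36 with all arrays and slide as a block. The 80 had the same sign within all 3 scan days, which follows of itself for any gene whose groups do not overlap. Signs turned for Cep55 with the floor halved (-0.24), and without normalization for Hfe (-0.013) and Tfr2 (-0.063), which did not pass as reported. Slide could not be fitted as a block on the 10 arrays alone, and scan day 1 held no B6 arrays of these diets. No paired analysis was possible because the labels give the mice no shared replicate numbers.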

Other observations

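Several liver programmes not described above had at most 1 call each, and over all genes 1.80% rose and 1.35% fell. An unadjusted p under 0.05 was found for 3355 of all 20332 genes. Of 26 interferon response genes none passed in limma or by the methods' t-test, 4 had an unadjusted p under 0.05, and 25 had a difference above zero, with a median of 0.20. Isg15, an interferon-induced modifier, had a difference of 0.49 (adjusted p = 0.387), and 1.57, 0.36 and 0.0035 within scan days 1, 2 and 3. The interferon median was 0.08 without deficient mouse 2, 0.11 without enriched mouse 4 and -0.04 without scan day 1. Deficient mouse 2 had a mean level over the list of 10.61, against 11.16 to 11.50 in the other deficient mice. Of 24 respiratory chain genes none passed in limma or by the methods' t-test, 1 had an unadjusted p under 0.05, and the median was 0.02. Of 19 clock genes none passed in limma or by the methods' t-test, 7 had an unadjusted p under 0.05, and the median was 0.12. Of 18 acute phase genes 1 fell, Itih3 (-0.26, adjusted p = 0.0378), and of 20 cytochromes P450 and their regulators 1 fell, the xenobiotic receptor Nr1i3 (-0.48, adjusted p = 0.0425). Of 10 male-biased liver genes 1 fell, Cyp4a12a (-0.52, adjusted p = 0.0168), whose other probe gave 0.37. The unfolded protein response list of 20 genes and the 15 female-biased genes had no call in limma, with 4 and 1 at an unadjusted p under 0.05.

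Among markers of other cells, none of 12 Kupffer cell, 10 stellate cell and 10 lymphocyte markers passed in limma, and 1, 3 and 2 had an unadjusted p under 0.05. The summed Kupffer cell signal was 64720 to 74770 in enriched livers and 50090 to 69370 in deficient livers. None of 5 bile duct, 6 neutrophil, 4 pancreas and 7 muscle and fat markers passed, and 0, 1, 0 and 0 had an unadjusted p under 0.05. Over all genes this held for 3355 of 20332.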
